A study of Homo sapiens with 2 samples.

Results

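The 6 histone variant genes H2AZ1, H2AZ2, H2AX, H3-3A, H3-3B and MACROH2A1 were described across the cell cycle of untreated SH-SY5Y cells. They were chosen by symbol, and their rows were found by Ensembl identifier, 6 of 33538 gene rows. SH-SY5Y is an adherent human neuroblastoma cell line that is widely used as a model of this tumour of the sympathetic lineage. The cells of 2 flasks of the same culture, SplitA and SplitB, were left unsynchronized and untreated, given 1 hashtag antibody for each flask, and then pooled into 1 library. The flasks were therefore 2 replicates of the same condition, and the comparison was between phases of the cell cycle within each flask.

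Histone variants are encoded by genes outside the large histone clusters and replace the canonical histones at particular places of the chromatin. Canonical histone mRNAs are made in S phase and end in a stem-loop without a poly(A) tail, whereas most variant mRNAs carry introns and a poly(A) tail and are made in all phases. H2A.Z, encoded by H2AZ1 and H2AZ2, sits beside the start sites of active genes and is placed there by the SRCAP and p400 remodellers. H2A.X, encoded by H2AX, is phosphorylated beside DNA double-strand breaks. H3.3, the same protein from H3-3A and H3-3B, is placed outside replication by the HIRA and DAXX-ATRX chaperones, and macroH2A1 carries a large macro domain and is known from the inactive X chromosome and other silenced chromatin.

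A cell was assigned to a flask where the count of one hashtag was at least 3 times the other and the other was no higher than the limit set in the study's code, and was kept with at least 1000 genes detected. This kept 899 of 1179 SplitA cells and 1195 of 1605 SplitB cells, 2094 cells in all, with 5852780 and 8066440 UMIs (unique molecular identifiers, which mark single captured mRNA molecules). The kept cells had 1801 to 27205 UMIs, with a median of 6063 in SplitA and 6346 in SplitB. Of 10 markers of adrenergic neuroblastoma cells, 10 had a UMI in both flasks. TH, which makes the precursor of dopamine, had only 9 UMIs in each. Of 7 mesenchymal markers, 6 also had a UMI in both flasks, among them VIM with 648 UMIs in SplitA and 1129 in SplitB. Detection alone therefore did not separate these lists. Their summed levels in CPM (defined below) were 3237 in SplitA and 3125 in SplitB for the adrenergic list, and 123 and 154 for the mesenchymal list. Of 6 genes of other cell types, EPCAM had 11 and 16 UMIs and the blood, endothelial and liver genes PTPRC, CD3E, HBB, PECAM1 and ALB had 0 in both flasks.

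Cell cycle phases were called with the gene lists of Seurat, of which the table held 42 of 43 for S and 52 of 54 for G2M, and none of the 6 variant genes is on either list. In SplitA 369 cells were in G1, 276 in S and 254 in G2M. In SplitB the numbers were 505, 348 and 342. G1 thus held 41.0% of SplitA cells (95% exact binomial interval 37.8 to 44.3%) and 42.3% of SplitB cells (39.4 to 45.1%). A phase is a range of a score and not a cell type, and 483 of the 2094 cells lay within 0.05 of a limit between phases. Cells with neither score positive were called G1, so that group may also hold cells that were not cycling. The call was checked with genes on neither list. All 6 S genes tested, among them MCM3, rose in S against G1, and all 7 G2M genes tested, among them PLK1 and CCNB1, rose in G2M against G1. The 6 S genes were also higher in G2M, and 6 of the 7 G2M genes in S, than in G1. Between G2M and S, MCM3 fell by 0.57 on the log2 scale (adjusted p = 0.00024), while PLK1 rose by 3.39 (adjusted p = 6.9e-23) and CCNB1 by 2.39 (adjusted p = 2.8e-19). G2M cells were deeper, with a median of 7077.5 UMIs in SplitA and 6969 in SplitB, against 5830 and 6130 in G1. The median share of mitochondrial UMIs was between 8.43% and 8.89% in every phase of both flasks.

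H2AZ1 lies on chromosome 4 at 99948086 to 99950355 on the minus strand of GRCh38 and has 5 exons, and its canonical transcript of 866 bases is the shortest of the 6. H2AX, on chromosome 11 at 119093874 to 119095465 on the minus strand, has 1 exon. H3-3A lies on chromosome 1 at 226061851 to 226072019 on the plus strand and H3-3B on chromosome 17 at 75776434 to 75785893 on the minus strand, each with 4 exons. H2AZ2 lies on chromosome 7 at 44826791 to 44848087 and MACROH2A1 on chromosome 5 at 135334381 to 135399914, both on the minus strand.

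The promoters of 4 genes are printed, because the RNA of H2AX and H2AZ1 differed most between phases and that of H3-3A and H3-3B least or downward. They are RefSeq windows of GRCh38.p14 from 250 bases before to 50 bases after a transcription start, 5′ to 3′ on the strand of the gene, at chr11:119095416-119095715 (H2AX), chr4:99950226-99950525 (H2AZ1), chr1:226062466-226062765 (H3-3A) and chr17:75779730-75780029 (H3-3B). All 6 genes had a window, and of the 4 windows of H3-3A and 2 of MACROH2A1 that at the start of the canonical transcript was taken. Capitals mark CCAAT and TTTGAA on either strand (ATTGG and TTCAAA on the other). CCAAT is the box bound by NF-Y, and TTTGAA is the core of the cell cycle homology region bound by the DREAM and MuvB complexes.
H2AX: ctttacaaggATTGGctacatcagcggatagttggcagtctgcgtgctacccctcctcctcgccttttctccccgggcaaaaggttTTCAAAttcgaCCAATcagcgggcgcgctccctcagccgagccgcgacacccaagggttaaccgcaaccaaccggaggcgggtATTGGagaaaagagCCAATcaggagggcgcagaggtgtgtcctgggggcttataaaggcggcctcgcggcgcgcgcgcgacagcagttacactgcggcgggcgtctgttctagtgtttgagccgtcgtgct
H2AZ1: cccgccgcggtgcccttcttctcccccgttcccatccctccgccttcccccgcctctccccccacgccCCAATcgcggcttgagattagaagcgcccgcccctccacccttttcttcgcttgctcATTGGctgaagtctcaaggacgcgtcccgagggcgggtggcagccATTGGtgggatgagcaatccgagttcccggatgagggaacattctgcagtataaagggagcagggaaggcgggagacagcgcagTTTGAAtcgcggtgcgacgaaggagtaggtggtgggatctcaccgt
H3-3A: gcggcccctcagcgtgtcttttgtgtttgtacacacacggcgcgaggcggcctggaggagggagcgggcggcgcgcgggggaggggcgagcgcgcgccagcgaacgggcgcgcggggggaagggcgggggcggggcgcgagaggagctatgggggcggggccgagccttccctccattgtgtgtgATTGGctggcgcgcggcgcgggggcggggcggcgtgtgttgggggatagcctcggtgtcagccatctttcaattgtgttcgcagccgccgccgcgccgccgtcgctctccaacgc
H3-3B: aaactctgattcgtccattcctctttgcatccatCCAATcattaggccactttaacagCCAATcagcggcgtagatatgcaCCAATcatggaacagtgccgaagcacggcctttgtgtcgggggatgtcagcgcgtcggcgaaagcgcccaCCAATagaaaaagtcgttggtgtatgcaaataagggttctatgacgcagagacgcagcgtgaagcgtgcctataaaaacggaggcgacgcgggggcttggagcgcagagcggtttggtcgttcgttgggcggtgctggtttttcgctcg

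CCAAT occurred 4 times in the window of H2AX, 3 times in that of H2AZ1, 4 times in those of H2AZ2 and H3-3B, 1 time in that of H3-3A and not in that of MACROH2A1. At least 1 CCAAT was found in 34.6% of 35116 promoter windows of the same length and at least 2 in 10.8%. TTTGAA was found in the windows of H2AX, 164 bases before the start and on the other strand, and of H2AZ1, 4 bases after it, and in 15.2% of all windows. The windows of the other 4 genes did not hold these letters. Of the matches printed, no CCAAT overlapped a TTTGAA. The letters TTTCGCGC and TTTGGCGC, 2 forms of the E2F site, were in none of the 6 windows and in 0.515% and 0.652% of all windows. A match is a match of letters only, and no binding was measured.

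Across all kept cells H3-3A was the most abundant of the 6 in UMIs. It reached 2541 UMIs per 1000000 UMIs (CPM) in SplitA (95% exact Poisson interval 2500 to 2582) and 2459 in SplitB (2425 to 2494). H3-3B followed with 2272 CPM in SplitA and 2181 in SplitB, and H2AZ1 with 1169 and 1158. In both flasks these 3 genes were apart by more than the flasks differed, and H3-3A ranked 84 of 16406 detected genes in SplitA and 84 of 17065 in SplitB. H2AZ2, the second gene of H2A.Z, was at 467 CPM in SplitA and 426 in SplitB. MACROH2A1 was at 167 and 169 CPM and H2AX at 96.2 and 87.4. The lowest of the 6 was thus H2AX, which had a UMI in 36.3% of SplitA cells and 35.8% of SplitB cells, while H3-3A had one in 99.6% and 99.7%. The paper describes capture by oligo-dT primers, which bind poly(A) tails. The H2AX level and its differences between phases may therefore leave out its mRNA form without a tail. The library was primed at the 3′ end, where 1 UMI stands for 1 molecule whatever its length. If the UMIs of both flasks are divided by transcript length instead, H3-3A stays first with 32436 UMIs per kilobase, H2AZ1 follows with 18682 and then H3-3B with 11420, and the order of the other 3 is as in CPM. The culture held a single cell line, so no cells that lack these genes gave a background for the shares of cells, and intervals cover counting error only.

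H2AX and H2AZ1, the 2 genes placed in a class with the cell cycle, rose from G1 to S and further to G2M in both flasks. The S gene H4C3 also rose from S to G2M, as given above, and whether the called G2M cells include cells late in S was not tested. H2AX went from 24.1 CPM in G1 to 100.6 in S and 182 in G2M in SplitA. In SplitB it went from 25.2 to 91.3 and 170. The flasks differed far less than the phases, and the ranges of the 3 phases did not overlap. In the edgeR quasi-likelihood test on UMIs summed per flask and phase H2AX was 3.61-fold higher in S than in G1 (log2 1.85 ± 0.14 SE, adjusted p = 4.3e-19) and 6.49-fold higher in G2M than in G1 (log2 2.697 ± 0.12, adjusted p = 4.9e-32). It also rose from S to G2M, by 0.84 ± 0.096 on the log2 scale (adjusted p = 8.6e-11). A UMI of H2AX was found in 13.3%, 40.9% and 64.6% of the G1, S and G2M cells of SplitA, and in 15.05%, 41.4% and 60.8% of those of SplitB. With every cell thinned to 2000 UMIs the shares were 4.61%, 15.6% and 25.2% in SplitA and 4.17%, 14.9% and 24.0% in SplitB, in the same order.

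H2AZ1 was 551.6 CPM in G1, 1415 in S and 1720 in G2M cells of SplitA. In SplitB it was 602, 1381 and 1718. As for H2AX, no value of a phase in one flask reached that of another phase in the other. The RNA was 2.27-fold higher in S than in G1 (log2 1.18 ± 0.039, adjusted p = 3.0e-39) and 2.73-fold higher in G2M (log2 1.45 ± 0.037, adjusted p = 2.5e-46). From S to G2M it rose by 0.27 ± 0.035 (adjusted p = 7.3e-09). A median G1 cell held 3 UMIs of H2AZ1 in both flasks, and a median G2M cell 13 in SplitA and 11 in SplitB.

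**Figure D1:**
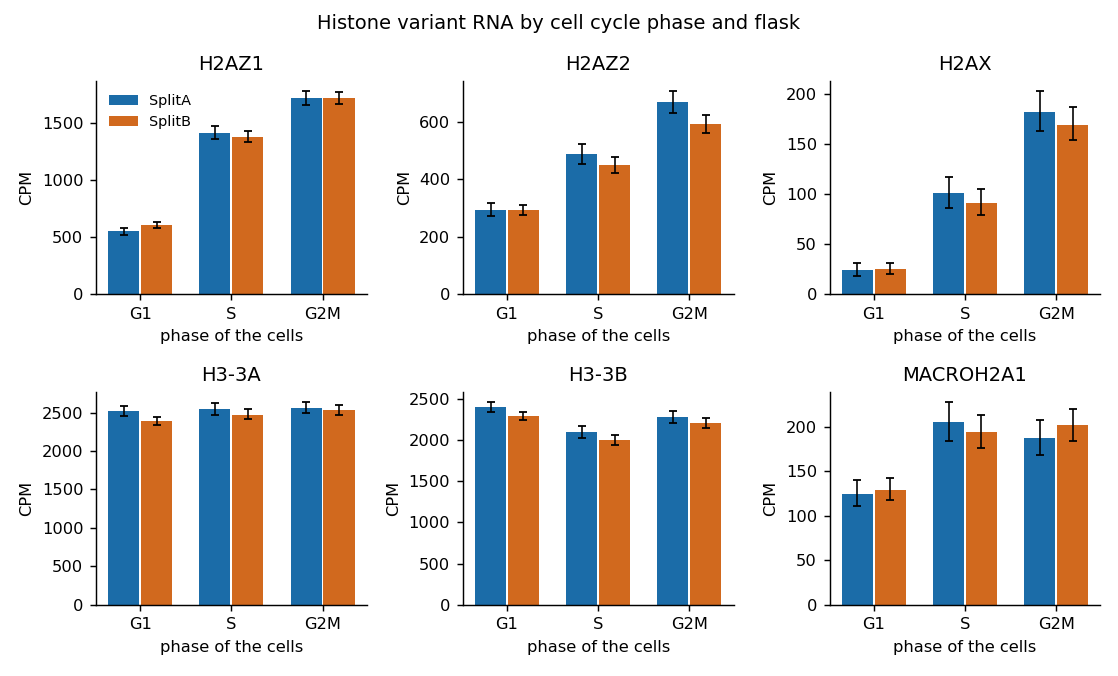
CPM (vertical axis, starting at 0) of the 6 histone variant genes in G1, S and G2M cells (horizontal axis) of SplitA (blue) and SplitB (orange), with 95% exact Poisson intervals as error bars. H2AZ1, H2AZ2 and H2AX climb from G1 to G2M, MACROH2A1 is lowest in G1, H3-3A stays between 2395 and 2565, and H3-3B is lowest in S.

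The other 4 genes had been placed together as constant, and 3 of them differed between phases by the same test, H2AZ2 and MACROH2A1 upward and H3-3B downward. H2AZ2 was 293 CPM in G1 in both flasks, 486 and 448 in S, and 668 and 591 in G2M (SplitA first). It rose by 0.57 ± 0.055 on the log2 scale from G1 to S (adjusted p = 3.9e-14), by 0.97 ± 0.051 from G1 to G2M (adjusted p = 3.4e-27) and by 0.39 ± 0.050 from S to G2M (adjusted p = 4.7e-09). MACROH2A1 was 125 and 129 CPM in G1, 205 and 193 in S, and 187 and 201 in G2M. Its S and G2M values overlapped between the flasks and both lay above G1. It rose by 0.55 ± 0.081 in S (adjusted p = 7.0e-08) and by 0.49 ± 0.079 in G2M (adjusted p = 4.5e-07) against G1, and the difference between G2M and S was -0.06 ± 0.078 (adjusted p = 0.75).

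The H3.3 genes had another pattern. H3-3B was 2396 and 2291 CPM in G1, 2096 and 1997 in S, and 2274 and 2199 in G2M. In each flask S was lowest and G1 highest. It fell by 0.28 on the log2 scale in S against G1 (SE 0.029, adjusted p = 4.0e-13) and by 0.19 in G2M against G1 (SE 0.028, adjusted p = 7.1e-08). The size of the second difference depends on the scaling, being -0.07 with library totals. From S to G2M it was higher by 0.096 ± 0.030 (adjusted p = 0.030), a call that 5 of 14 alternatives did not make. H3-3A was 2519 and 2395 CPM in G1, 2544 and 2475 in S, and 2565 and 2534 in G2M. Its S range overlapped the G1 and G2M ranges, while both its G2M values lay above both G1 values. Its difference was -0.06 ± 0.028 in S (adjusted p = 0.16) and -0.07 ± 0.028 in G2M (adjusted p = 0.060) against G1 with TMM factors, and 0.03 and 0.06 with library totals, so that its direction flips with the scaling. Between G2M and S it was -0.0094 ± 0.029 (adjusted p = 0.90). Per cell, where G2M cells had more captured UMIs in all, the mean count of H3-3A went from 15.9 UMIs in G1 to 18.8 in G2M in SplitA and from 16.0 to 18.1 in SplitB. That of H3-3B went from 15.1 to 16.6 in SplitA and from 15.3 to 15.7 in SplitB, so its fall in G2M was one of share and not of count per cell.

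**Figure D2:**
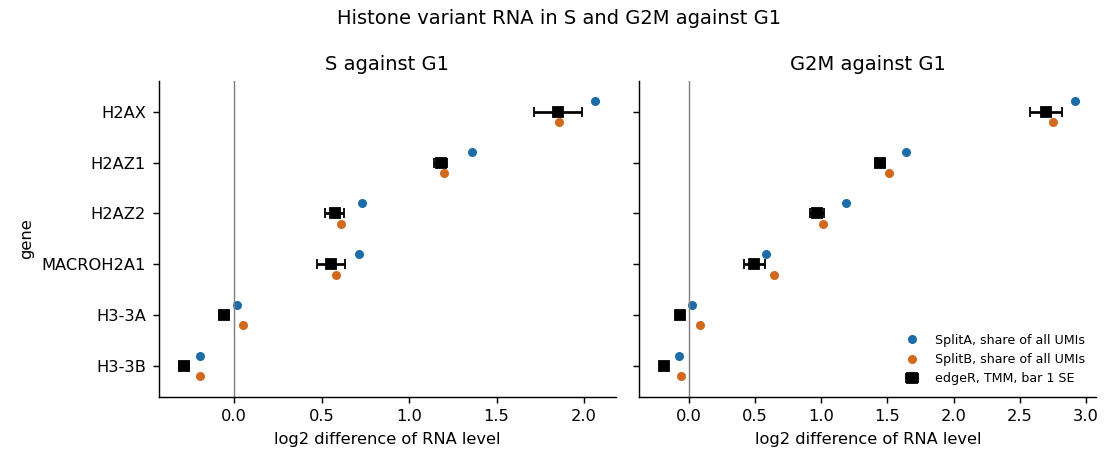
Log2 difference of RNA level (horizontal axis) in S against G1 (left) and in G2M against G1 (right) for the 6 genes. Black squares are the edgeR estimates with TMM factors and bars of 1 SE, and circles the log2 ratio of CPM in each flask. H2AX lies farthest right, at 1.85 and 2.697, H3-3B lies left of 0 in both, and H3-3A is on either side of 0 depending on the scaling.

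Counted together, 4 of the 6 genes were higher and 1 was lower in S than in G1, and the same numbers held for G2M against G1. Over all 10521 genes tested, 10.5% were higher and 9.42% lower in S than in G1 (20% in either direction), and 15.2% were higher and 15.1% lower in G2M than in G1 (30.3% in either direction). The median difference of the 6 was 0.56 in S and 0.73 in G2M on the log2 scale, beside -0.0013 and 0.032 over all genes. Between G2M and S 4 of the 6 were higher and 0 lower by edgeR, beside 3.77% and 3.68% of all genes (7.45% in either direction). MACROH2A1 and H3-3A, which had negative values there, had an unadjusted p of 0.46 and 0.74, so that 0 genes were lower at an unadjusted p under 0.05, and DESeq2 also called 0 lower. With library totals in place of TMM factors the median of all genes moved to 0.15 in G2M and 0.086 in S, and 67.3% and 68.4% of the calls were higher, against 50.1% and 52.8%. The phases were called from other genes of the same cells, and the flasks shared 1 library. With flask as a term, the p-values rest on how far the phase differences varied between only 2 flasks. That variation was estimated with help from all genes tested.

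By class, the mean log2 ratio of S to G1 was 1.71 for H2AX and H2AZ1 and 0.32 for the other 4 in SplitA, a difference of 1.39. In SplitB the means were 1.53 and 0.26, a difference of 1.27. For G2M against G1 the difference was 1.85 in SplitA and 1.71 in SplitB. The classes did not overlap, since the lowest of the first class in G2M was 1.64 in SplitA and 1.51 in SplitB and the highest of the second, H2AZ2, was 1.19 and 1.01, but the second class spread from there down to -0.075 and -0.059 for H3-3B. No p-value was given to this score over chosen genes. The classes were chosen with earlier results of these data known, so their separation is no independent support for the split.

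Cells were also divided more finely by the angle of each cell in the plane of its S and G2M scores, in 8 bins of 45 degrees. Cells called G1 lay in bins 1 and 8, those called S in bins 2 to 4 and those called G2M in bins 5 to 7. Whether the angle orders cells in time was not tested. Both flasks had their highest H2AX in bin 5, where both scores are positive and the G2M score is the larger, with 199 CPM in SplitA and 176 in SplitB. That was 8.69-fold and 8.17-fold the level of bin 1. H2AZ1 was also highest in bin 5, at 1817 and 1802 CPM. It was 528 and 569.8 CPM in bin 1, 1024 and 919 in bin 2 and 1323 and 1364 in bin 3. H2AX was 22.9 and 21.6 CPM in bin 1, 41.8 and 72.6 in bin 2 and 59.1 and 82.3 in bin 3, so that the bin 2 value of SplitB lay above that of SplitA. MACROH2A1 was highest in bin 4, at 237 and 216 CPM, where the S score is the larger. Its intervals there overlapped those of bin 5, at 205 and 215 CPM. H3-3B was lowest in bin 3, at 1824 and 1915 CPM, where the S score is positive and larger than the negative G2M score, and highest in bin 8, at 2566 and 2442. H3-3A differed by 1.11-fold and 1.15-fold between its highest and lowest bin. Bin 7 held 16 and 12 cells and was left out of these statements, and the bins were not tested.

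**Figure D3:**
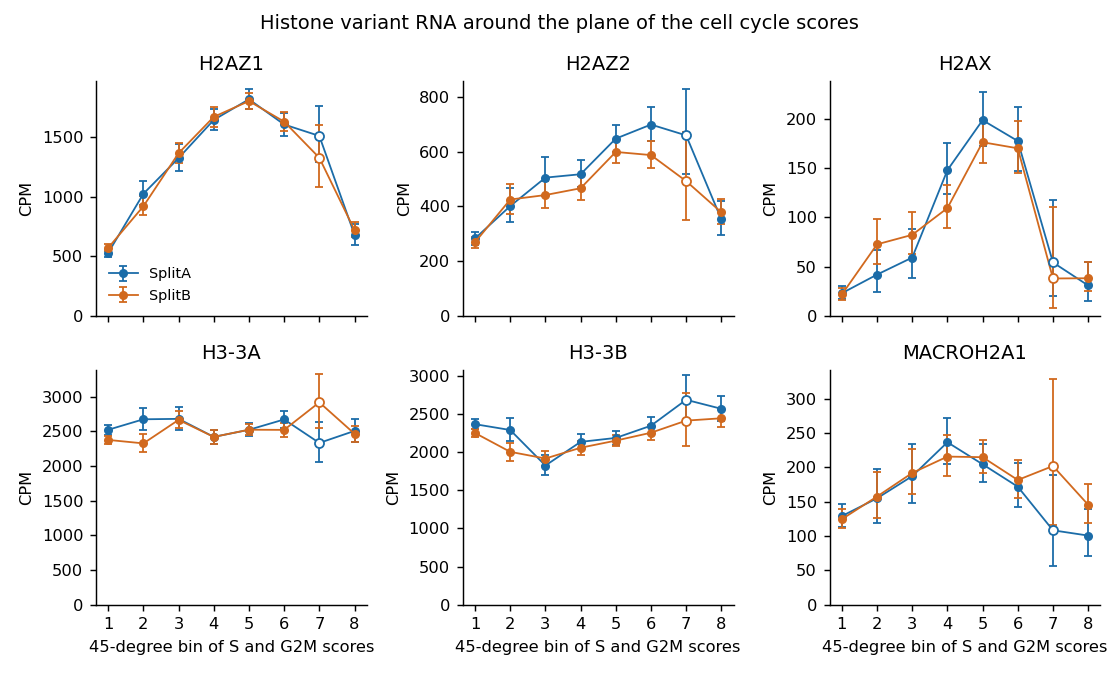
CPM (vertical axis) of each gene in 8 bins of 45 degrees of the S and G2M score plane (horizontal axis, bins 1 and 8 in G1, bins 2 to 4 in S, bins 5 to 7 in G2M), in SplitA (blue) and SplitB (orange), with 95% exact Poisson intervals. Open circles are bins under 20 cells. H2AX and H2AZ1 peak in bin 5, MACROH2A1 is highest in bin 4 with overlapping intervals in bin 5, and H3-3B dips in bin 3.

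Because a share within a pair needs no scaling factor, the paralogs were also set against each other. The UMIs were pooled over cells, so deeper cells weigh more in a share. H3-3A and H3-3B encode the same protein, and 78.6% of their 411 coding bases are identical. H3-3A gave 51.3% of the UMIs of the pair in G1 in SplitA (95% exact binomial interval from 50.3% up to 52.2%), then 54.8% among S cells (53.7 to 55.9%) and 53.0% among G2M cells (52.0 to 54.0%). In SplitB the shares were 51.1% (50.3 to 51.9%), 55.3% (54.4 to 56.3%) and 53.5% (52.6 to 54.5%). In both flasks the pair was most even in G1, and the interval of S lay above that of G1. With cells thinned to 2000 UMIs the H3-3A share was 49.9%, 55.1% and 50.8% in G1, S and G2M, as the mean of the flasks. H2AZ1 and H2AZ2 share 80.4% of 387 coding bases. H2AZ1 made 65.3% of the pair in G1 in SplitA (63.1 to 67.4%), then 74.4% among S cells (72.9 to 75.9%) and 72.0% among G2M cells (70.7 to 73.3%). In SplitB it made 67.3% (65.6 to 69.0%), 75.5% (74.2 to 76.8%) and 74.4% (73.2 to 75.5%). Both H2A.Z genes rose through the cycle, so the H2AZ1 share moved by the larger rise of H2AZ1 from G1 to S. The longest run of bases that the paralogs share after the coding sequence is 13 for the H3.3 pair and 11 for the H2A.Z pair, which bears on how well 3′ reads tell them apart. The annotation names 47 H3 and 8 H2AZ pseudogenes, and 0 of them are among the rows of the table, so reads that match them could not be followed.

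**Figure D4:**
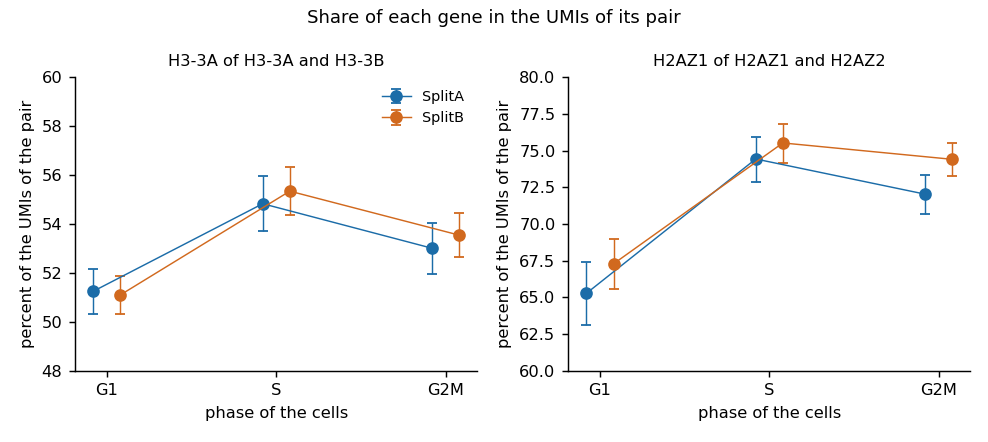
Percent of the UMIs of a pair that came from H3-3A (left, axis from 48 to 60%) and from H2AZ1 (right, axis from 60 to 80%) in G1, S and G2M cells of SplitA (blue) and SplitB (orange), with 95% exact binomial intervals. The H3-3A share goes from 51.3 and 51.1% in G1 to 54.8 and 55.3% in S, and the H2AZ1 share from 65.3 and 67.3% to 74.4 and 75.5%.

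Variation between cells beyond counting noise was measured in cells thinned to 2000 UMIs as the variance minus the mean over the squared mean, which is 0 for Poisson counts. H2AX had the highest of the 6, 0.97 in SplitA and 1.12 in SplitB, and ranked 147 of 2107 and 97 of 2115 genes whose mean reached 0.1 UMI. H2AZ1 had 0.33 and 0.38, H2AZ2 0.27 and 0.25, and the medians of all these genes were 0.15 and 0.17. H3-3B had 0.15 and 0.21. H3-3A, at 0.095 and 0.062, was below those medians in both flasks, so the 2 genes of the same protein differed, H3-3B varying more in both. MACROH2A1 had 0.15 in SplitA and 0.0077 in SplitB, and its value was -0.011 without the cells of 15% or more mitochondrial UMIs. With all UMIs scaled to the median total in place of thinning, the mean of the flasks was 0.62 in place of 1.05 for H2AX and 0.26 in place of 0.077 for MACROH2A1, which placed MACROH2A1 above H2AZ2 at 0.23.

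The genes most like each member across cells were taken by Pearson's r of log-normalized values, the lower of the 2 flasks, among the 5415 genes detected in 10% of cells or more. The r values describe 899 and 1195 cells that share a library and carry no p. For H2AZ1 these were HMGB1 (r = 0.53 in SplitA and 0.52 in SplitB), HMGB2 (0.57 and 0.52), BIRC5, CKS1B and NUCKS1. HMGB1 and HMGB2 are high-mobility-group proteins that bend DNA, and BIRC5, the survivin of the chromosomal passenger complex, and CKS1B, a subunit of cyclin-dependent kinases, are, like HMGB2, on the list that scores G2M cells. For H2AX they were HMGB2 (0.44 and 0.39), TOP2A, which untangles DNA in mitosis, BIRC5, H2AZ1 (0.37 and 0.35) and H4C3 (0.45 and 0.34), a replication-dependent histone H4 gene. HMGB2, TOP2A and BIRC5 are scoring genes of G2M. H4C3 itself was 368 and 424 CPM in G1, 3296 and 3344 in S, and 4065 and 4271 in G2M. Its UMIs come from a gene whose main mRNA form has no poly(A) tail, as is the case for 1 form of H2AX mRNA, and this table cannot tell the forms apart.

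H2AZ2 was most like HMGB2 (0.37 and 0.36), HMGN2, H2AZ1 (0.43 and 0.35), UBE2S and HMGB1. MACROH2A1 had low values, the highest with the tubulin gene TUBA1B (0.19 and 0.21), followed by HMGB2 and TUBB4B, both scoring genes of G2M, HSP90AA1 and H2AZ1. H3-3B was most like MYL6 (0.39 and 0.38), LGALS1, the ferritin gene FTH1, H3-3A (0.30 and 0.37) and B2M, none of which scores a phase. H3-3A was most like FTH1 (0.38 and 0.38), RPS20, TMSB4X, RPS12 and PTMA, and 0 of these 5 stayed among its 5 after thinning to 2000 UMIs. Among the 6 themselves the r of H2AZ1 with H3-3B was -0.050 and 0.060, and that of H2AX with H3-3A 0.013 and 0.043. With all UMIs each r within the H3.3 pair and within the 3 genes H2AZ1, H2AZ2 and H2AX was above each r between these groups, but this did not hold after thinning. The thinned r of H2AZ1 with H2AZ2 was 0.24 and 0.17, and that of H3-3A with H3-3B 0.16 and 0.19. The thinned r of H2AZ2 with H2AX was 0.062 and 0.064, below that of H2AZ2 with H3-3A, 0.074 and 0.10.

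In cells of 30% or more mitochondrial UMIs 4 of the genes had intervals that did not overlap those of the cells under 15% in both flasks. Counted per 1000000 UMIs of nuclear genes, MACROH2A1 was 175 in the 829 SplitA cells under 15% mitochondrial UMIs (95% exact Poisson interval 164 to 187), 450.5 in the 53 cells from 15 to 30% (342 to 582) and 648 in the 17 cells of 30% or more (396 to 1001). In SplitB it was 179 (169 to 189) in 1091 cells, 293 (218 to 387) in 60 and 591 (438 to 782) in 44. H3-3A went the other way, with 2817 in the lowest and 1231 in the highest range of SplitA and 2730.2 and 1714 in SplitB. H3-3B had 2517, 2167 and 1490.0 over the 3 ranges in SplitA and 2411, 2616 and 1786 in SplitB, where the middle range was the highest. H2AZ1 was 1277, 1616 and 1782 in SplitA and 1275, 1261 and 1593 in SplitB, where the lower ranges did not differ beyond their intervals. Its interval ended at 1308 under 15% and began at 1342 at 30% or more in SplitA. In SplitB these limits were 1302 and 1333. All these intervals cover counting error only and not the spread between the 17 and 44 cells of the highest range. The intervals of H2AX and of H2AZ2 overlapped between the ranges, H2AX being at 106 (97.3 to 115) and 130 (35.3 to 332) in SplitA, where the upper range held 4 UMIs. Across single cells, Pearson's r with the mitochondrial share was taken on values log-normalized to all UMIs with the mitochondrial ones included. It was -0.49 in SplitA and -0.47 in SplitB for H3-3A and -0.38 and -0.37 for H3-3B. For MACROH2A1 it was 0.11 and 0.096, and for H2AZ1 0.018 and -0.099. H2AZ2 had -0.20 and -0.16, and H2AX -0.038 and -0.065. Leaving out the 70 SplitA and 104 SplitB cells of 15% or more left the calls in S and in G2M against G1 as they were. This held for each of MACROH2A1, H3-3A, H3-3B and H2AZ1.

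**Figure D5:**
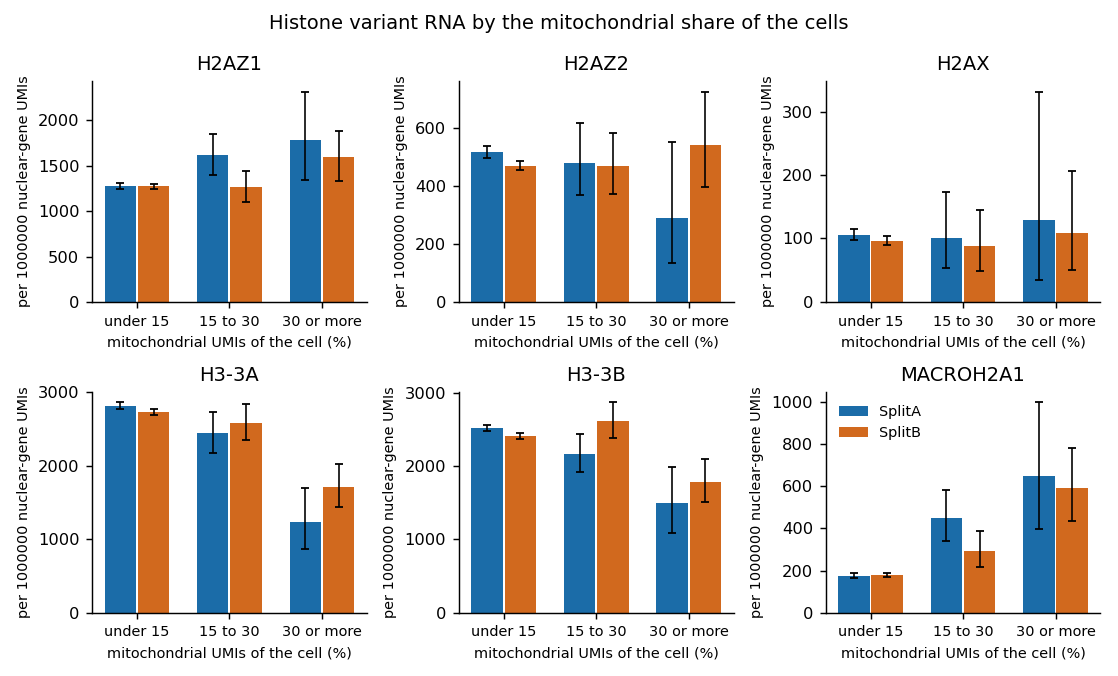
UMIs per 1000000 UMIs of nuclear genes (vertical axis, starting at 0) of each gene in cells with under 15, 15 to 30 and 30 or more percent mitochondrial UMIs (horizontal axis), in SplitA (blue) and SplitB (orange), with 95% exact Poisson intervals. MACROH2A1 goes from 175 and 179 to 648 and 591, and H3-3A from 2817 and 2730.2 to 1231 and 1714.

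Other histone variants and the factors that place them were taken from lists of 41 genes, 5 of which score phases and are left out of the counts. Of the 28 others tested, 10 were higher and 2 lower in S than in G1, and 12 were higher and 2 lower in G2M, beside 10.5% and 9.42%, and 15.2% and 15.1%, of all genes. The 7 genes of H3.3 deposition had 1 higher and 0 lower in S and 3 higher and 0 lower in G2M. The one higher in S was UBN1, a subunit of the HIRA complex, which rose by 0.45 ± 0.16 in S (adjusted p = 0.032) and by 0.46 ± 0.15 in G2M (adjusted p = 0.016). Its paralog UBN2 was at -0.45 ± 0.25 in S (adjusted p = 0.22) and -0.29 ± 0.24 in G2M (adjusted p = 0.39). HIRA itself was at 0.80 in S (adjusted p = 0.055) and 1.09 in G2M (adjusted p = 0.0016). Of 9 H2A.Z exchange genes tested 2 were higher and 1 was lower in each phase. The lower was ZNHIT1, a subunit of the SRCAP complex, which fell by 0.64 in G2M (SE 0.061, adjusted p = 1.6e-14), while DMAP1 was at -0.53 ± 0.25 in S (adjusted p = 0.14). The 2 higher were YEATS4 and ACTL6A, with 0.94 and 0.72 in S.

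All 4 tested chaperones of canonical H3 and H2A-H2B were higher in both phases. ASF1B, which hands over H3-H4, rose most of the tested list genes, by 3.21 ± 0.30 in S (adjusted p = 3.2e-14) and 3.21 ± 0.30 in G2M (adjusted p = 5.7e-15). CHAF1A, the large subunit of CAF-1, rose by 2.45 ± 0.17 in S (adjusted p = 6.4e-21) and 1.79 ± 0.18 in G2M (adjusted p = 2.0e-13). MDC1, which reads phosphorylated H2A.X, rose by 1.38 ± 0.27 in S (adjusted p = 3.5e-05) and 1.81 ± 0.24 in G2M (adjusted p = 3.7e-09). Of the 5 H2AX kinases and readers 2 were higher, MDC1 and the kinase gene PRKDC, and 3, among them ATM, were not called in either phase. Among the other variants tested, H1-10 rose by 0.53 ± 0.040 in G2M (adjusted p = 6.7e-19). MACROH2A2, at 82.7 and 76.7 CPM, was at 0.25 in both S and G2M (adjusted p = 0.12 and 0.081). CENPA, the H3 variant of centromeres, is itself a scoring gene, so its difference of 4.61 in G2M is a description and not a test. H3-5, a retrocopy of H3-3B, had 4 and 8 UMIs, and H2AJ and H3-4 had 0, which allows up to 3 UMIs per flask.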

How the data were processed

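Untreated SH-SY5Y cells of 2 flasks were tagged with hashtag antibodies, pooled and sequenced as 1 3′ single-cell library with a hashtag library. Per the labels, the authors aligned the reads to GRCh38 and counted UMIs with STAR 2.7 and Cell Ranger 4.0.0, and the deposited values are UMI counts per cell without normalization, for 33538 gene identifiers and 2 hashtags in 2879 cells. Which gene annotation was used is not given in the sources used here. The flask names SplitA and SplitB are those of the study.

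Singlets were taken by the count limit of the study's code and a ratio of 3 and kept with at least 1000 genes. The 95 cells that passed neither flask's limits were left out as multiplets, and doublets within a flask cannot be seen. Phases were called with Seurat 5.3.0. UMIs were summed per flask and phase, and the 6 sums were tested with edgeR 4.0.16 (TMM factors, filterByExpr, quasi-likelihood test, flask as a term, since the phases of a flask come from the same cells' culture) in R 4.3.3, with Benjamini-Hochberg adjustment over 10521 genes and a threshold of 0.05. SE are of the log2 difference, worked back as its absolute value over the square root of the quasi-likelihood F statistic. DESeq2 1.42.0 was an alternative. CPM are UMIs per 1000000 UMIs. Log-normalized values used a scale factor of 10000, and thinning drew 2000 UMIs per cell, leaving out 3 shallower cells. Intervals are at 95% and cover counting error only. Python 3.11.15, numpy 2.4.6, pandas 2.3.3, scipy 1.17.1 and matplotlib 3.10.9 were used for the rest. On simulated counts of 10502 genes for G2M against G1, edgeR found 69.4% of changes of 1 on the log2 scale and 30.9% of changes of 0.5, and called 0.0582% of unchanged genes. DESeq2 found 30.6% and 8.25% of these changes and called 0 unchanged genes. The simulation used 1 dispersion for all genes and phases known in advance. It therefore does not measure errors that come from calling phases in the same cells.

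Gene positions are those of GENCODE release 44 and promoters those of RefSeq, both on GRCh38. Named genes were all 6 members, the 5 most like each, and from the lists the 3 highest and 3 lowest in S and in G2M against G1. HIRA, UBN1, YEATS4, ACTL6A, PRKDC, ATM, H1-10, MACROH2A2, CENPA, H3-5, H2AJ and H3-4 were named after their values were seen. The members, lists and classes were chosen with earlier results of these data known. The values of 2 genes of these lists are not reported here.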

Additional observations from a re-analysis of the deposited data

Results flagged for a closer look

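Cells outside the comparisons also held RNA of the 6 genes, above the limit that a count of 0 allows. In 73 multiplets with at least 1000 genes the level was 964 CPM for H2AZ1, 398 for H2AZ2, 71.0 for H2AX, 2231 for H3-3A, 1954 for H3-3B and 142 for MACROH2A1, with a limit of 5.19 CPM. In 690 singlets under 1000 genes it was 832 CPM for H2AZ1, 225 for H2AZ2, 53.7 for H2AX, 1285 for H3-3A, 1562 for H3-3B and 258 for MACROH2A1, with a limit of 3.04 CPM. The median mitochondrial share of these singlets was 35.0%. Per 1000000 UMIs of nuclear genes MACROH2A1 was at 391 in them and 186 in kept cells, and H3-3A at 1942 and 2751. H3-3B was above H3-3A in these cells and below it in the kept ones.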

How the results depend on the processing

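H2AX, H2AZ1, H2AZ2 and MACROH2A1 were higher and H3-3B lower in S and in G2M than in G1 under all 14 alternatives that allow a test. Without the flask term, the replicate block of the design, 2076 genes were called in S, 3161 in G2M against G1 and 730 in G2M against S, and among the 6 genes only the H3-3B call in G2M against S was lost. H3-3A passed the threshold as lower under 2 of 14 alternatives in S and 7 in G2M, which made the number of members called lower 2 there: in S with a hashtag limit of 100 and with 500 genes per cell, and in G2M with 500 genes per cell, the updated list of cycle genes, thinning, DESeq2 size factors, and without cells near a phase limit, the 5% of cells with most UMIs or mitochondrial genes. H3-3B in G2M against S was not called with 1500 genes per cell, DESeq2 size factors, no filter, no block or DESeq2, at adjusted p from 0.058 to 0.69. Thinning called 855 genes in S, 1230 in G2M and 204 in G2M against S of 6506 tested, and DESeq2 called 675, 1060 and 178, while the 4 members called higher against G1 stayed 4.

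The class difference was 1.33 in S and 1.78 in G2M as the mean of the flasks. Without cells near a phase limit it was 1.47 and 1.96, with 500 genes per cell 1.21 and 1.62, and with thinning 1.07 and 1.53. In S it was also 1.43 with a hashtag limit of 100 and without the 5% of cells with most UMIs. The H3-3A share in G1 was 51.0% with the updated list, 50.6% without cells near a limit, 51.4% and 51.7% with 500 and 1500 genes, 49.9% with thinning and 50.8% without the deepest 5%. In S it was 56.0% without cells near a limit, 55.5% without cells of 15% or more mitochondrial UMIs, 55.6% with 1500 genes and 55.8% without the deepest 5%. In G2M it was 52.8% without cells near a limit and without the deepest 5%, 52.5% with 500 genes and 50.8% with thinning. The cause of these moves was not tested. Scaling all UMIs in place of thinning left 2 of 6 genes at their place in the order of excess variation, with H2AX at 0.62 and MACROH2A1 at 0.26, and MACROH2A1 turned to -0.011 without cells of 15% or more mitochondrial UMIs. Of the 30 most-like genes, 14 stayed with 500 genes per cell, 19 with 1500, 17 with thinning and 16 to 25 when a flask was left out. The phase test gives no value with 1 flask, since no residual degrees of freedom remain. Precision is limited by depth for H2AX and MACROH2A1, which had a median of 0 and 1 UMI per cell, and by the number of flasks.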
